A study of Triticum aestivum with 12 samples.

Results

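The Globulin 1 genes of bread wheat (Triticum aestivum) are described here across developing grain of a mutant and a wild-type cultivar. Every gene of the deposited expression table whose description contains the word globulin was taken, and 2 of 25269 tabled genes met that rule. They were TraesCS1B02G330000 on chromosome 1B and TraesCS1D02G317300 on chromosome 1D, both described as Globulin 1. A description is given for 1457 of the tabled genes, so a globulin gene that carries none would not be found by the word. The gene models of the table lie on chromosomes 1A, 1B and 1D alone, so globulin genes of other chromosomes are outside it. Both genes passed the filter on low values and were tested.

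RNA sequencing was done on immature grain in 12 libraries, 3 in each of 4 groups. The groups were the mutant HPm512 at 20 days after anthesis, the wild type Zhoumai22 at 20 days, the mutant at 30 days and the wild type at 30 days. High antioxidant activity is the phenotype that the labels record for the mutant, and the series asks how the grain transcripts of cultivars that differ in this trait compare at each age. The labels name 1 mutant line, and neither the mutagen nor the mutated gene is stated in them. The labels do not state whether replicates are different plants. The p-values below therefore speak only of variation among the libraries sequenced, and that variation could be technical.

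Cereal grains store nitrogen in the starchy endosperm, the tissue that later becomes flour, as proteins that are classed by how they dissolve. Globulins dissolve in salt solution, whereas the gliadins of wheat, which are prolamins, dissolve in aqueous alcohol and are part of the gluten. Transcripts of such storage proteins accumulate during grain filling and decline as the grain matures, while late embryogenesis proteins such as Em accumulate as the seed prepares to dry. Bread wheat carries A, B and D subgenomes, so a gene is commonly present as similar copies on, for example, chromosomes 1A, 1B and 1D.

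TraesCS1B02G330000 lay on the minus strand of 1B at bases 555938772 to 555939449, and TraesCS1D02G317300 on the minus strand of 1D at bases 412223432 to 412224112, by the coordinates of the table, whose genome build is not stated in its header or in the labels. The 1B model spanned 678 bases, which is 226 codons, and the 1D model 681 bases, which is 227 codons. The lengths implied by the deposited counts and FPKM (fragments per kilobase of gene length, scaled to library size) were 677 and 680 bases, so each span held nearly no bases outside the counted exon sequence. The table annotated both genes with serine-type endopeptidase inhibitor activity, a term shared by 101 tabled genes, and with negative regulation of endopeptidase activity, shared by 26. They were also the 2 tabled genes annotated with IgE binding, a term used for proteins that antibodies of the allergic type recognise. Neither was among the 43 tabled genes with the nutrient reservoir term, which is the annotation that marks storage proteins in this table. The label of a seed storage gene therefore rested on the description, and the ontology terms did not carry it.

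Library totals, which the counts and FPKM together imply, lay between 59.3 M and 73.6 M reads (M for 1e6), of which 13.4% to 22.7% fell on the tabled genes. The 1B gene received 7352 to 51671 reads per library and the 1D gene 11430 to 69008, so counting error was small beside the spread between libraries. Fold changes below come from edgeR's quasi-likelihood test with TMM factors, which set the middle of the genes to no change, whereas FPKM rests on library totals alone. With library totals alone, 1392 genes were called higher and 123 lower in the mutant at 20 days, against 24 higher and 107 lower with TMM factors. Only differences relative to the other genes of these libraries can be read from the fold changes.

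The 1B gene had 556, 507 and 801 FPKM in the mutant at 20 days, against 1092, 1090 and 1158 FPKM in the wild type at 20 days. At 30 days it had 626, 960 and 733 FPKM in the mutant, against 157, 169 and 165 FPKM in the wild type. Every mutant library thus lay below every wild-type library at 20 days and above every one at 30 days. Group means were 621 ± 158 FPKM in the mutant and 1113 ± 38.9 in the wild type at 20 days, and 773 ± 170 in the mutant and 164 ± 6.13 in the wild type at 30 days (SD, n = 3 each). From high to low the order was wild type at 20 days, mutant at 30 days, mutant at 20 days and wild type at 30 days. The mutant groups, which are neighbours in that order, overlapped, while no library of one of the other neighbouring groups reached the range of the next.

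The 1D gene had 805, 760 and 1071 FPKM in the mutant at 20 days, against 1515, 1412 and 1517 FPKM in the wild type at 20 days. At 30 days it had 748, 1050 and 810 FPKM in the mutant, against 244, 267 and 264 FPKM in the wild type. The wild type at 20 days was again highest and the wild type at 30 days lowest, with the mutant at both ages between them and its ages overlapping. Group means were 878 ± 168 FPKM in the mutant and 1482 ± 60.5 in the wild type at 20 days, and 869 ± 160 in the mutant and 258 ± 12.8 in the wild type at 30 days (SD, n = 3 each).

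**Figure D1:**
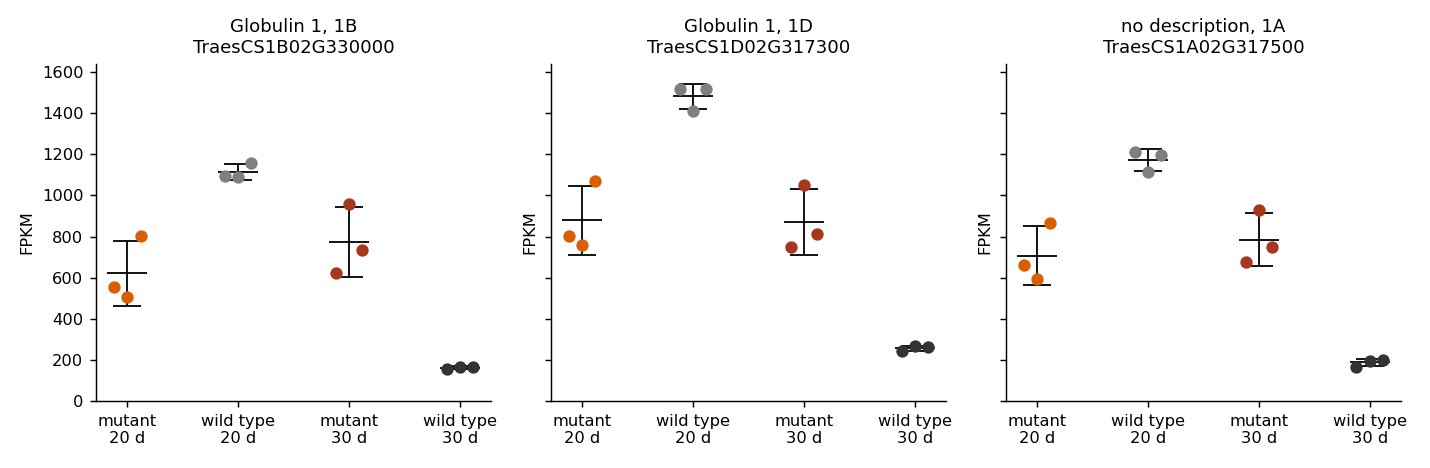
FPKM of the 1B and 1D Globulin 1 genes and of the undescribed 1A gene TraesCS1A02G317500 in each library (points), with the group mean and SD (horizontal lines and bars, n = 3). In each panel the wild type is highest at 20 days and lowest at 30 days, and the mutant lies between at both ages.

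The mutant libraries were more spread out than the wild-type ones. The coefficient of variation of the 1B gene was 25.4% in the mutant and 3.49% in the wild type at 20 days, and 22.1% in the mutant and 3.74% in the wild type at 30 days. For the 1D gene it was 19.2% and 4.09% in mutant and wild type at 20 days, and 18.4% and 4.95% in mutant and wild type at 30 days. The highest mutant library was the same for both genes, replicate 3 at 20 days and replicate 2 at 30 days. Replicate 3 at 20 days also held the highest summed level of the starchy endosperm markers in its group, 39611 FPKM, against 29129 and 21489 FPKM in replicates 1 and 2, and the lowest of the embryo and aleurone markers, 26.4 FPKM, against 136 and 109 FPKM. Replicate 2 at 30 days held the highest summed level of the embryo and aleurone markers in its group, 2539 FPKM, against 1370 and 1456 FPKM in replicates 1 and 3. Its endosperm markers summed to 34011 FPKM, against 29073 and 35312 FPKM in replicates 1 and 3. The highest library for Globulin 1 was thus not the highest for the same marker list at both ages. The part of these differences in tissue makeup in the spread of the Globulin 1 genes was not tested. In whole grain, fewer cells of a type and less RNA per cell cannot be told apart.

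Both Globulin 1 genes were among the most abundant transcripts of the table, whose gene models lie on 1A, 1B and 1D alone. By FPKM the 1D gene ranked 23 to 28 of 25269 in the mutant and 22 in each wild-type library at 20 days. At 30 days it ranked 32 to 34 in the mutant, against 69 to 74 in the wild type. The 1B gene ranked 29 to 38 in the mutant and 26 to 27 in the wild type at 20 days, and 35 to 37 in the mutant and 110 to 115 in the wild type at 30 days. In wild-type grain both thus stood lower in the table at 30 days than at 20 days. In the mutant the 1D gene also stood lower at 30 days, while the 1B ranks of the ages overlapped.

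At 20 days both Globulin 1 genes were called lower in the mutant, in a comparison where 1.87% of the 5723 tested genes were called lower. The 1B gene was lower by a log2 fold change of -1.13 ± 0.21 (SE; adjusted p = 0.0252, edgeR's quasi-likelihood test with Benjamini-Hochberg adjustment over all genes). For the 1D gene the log2 fold change was -1.05 ± 0.19 (adjusted p = 0.0231, same edgeR test). The ratio of mean FPKM, mutant over wild type, was 0.558 for the 1B gene and 0.593 for the 1D gene. All 3 mutant libraries lay below all 3 wild-type libraries for both genes, as they did for 4.3% of tested genes.

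The 20-day calls were close to the threshold. Leaving out mutant replicate 1 or 2, or wild-type replicate 1 or 2, ended both calls, with edgeR adjusted p up to 0.0942 for the 1B gene and 0.0820 for the 1D gene, and leaving out wild-type replicate 3 did so for the 1B gene alone (0.0537). With only the 20-day libraries in the fit the adjusted p was 0.0754 for each gene. The number of all genes called lower, 107, was 11 without mutant replicate 1, 12 without mutant replicate 2 or wild-type replicate 2, and 260 without mutant replicate 3. Over all omissions of 1 library the log2 fold changes stayed between -1.43 and -0.95 for the 1B gene and between -1.29 and -0.90 for the 1D gene.

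At 30 days the direction was the opposite, with log2 fold changes of greater size than at 20 days. Both genes were called higher in the mutant, where 13.6% of tested genes were called higher. The 1B gene had a log2 fold change of 2.71 ± 0.23 (SE; adjusted p = 1.82e-06, edgeR's quasi-likelihood test) and 4.71 times the mean FPKM of the wild type. The 1D gene had a log2 fold change of 2.23 ± 0.19 (adjusted p = 2.71e-06, edgeR) and 3.37 times the wild-type mean FPKM. Ranked by the size of their change, they stood at 155 and 243 of 5723 genes. Mutant libraries lay above all wild-type libraries for both genes and for 8.33% of tested genes, and leaving out any 1 library kept both calls.

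The change of the cultivar difference with age, which is the mutant against wild-type log2 fold change at 30 days minus that at 20 days, was 3.84 ± 0.31 for the 1B gene (adjusted p = 2.00e-06, edgeR's interaction contrast). It was 3.27 ± 0.27 for the 1D gene (adjusted p = 2.30e-06, same contrast). This contrast was called positive in 13.1% of tested genes.

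**Figure D2:**
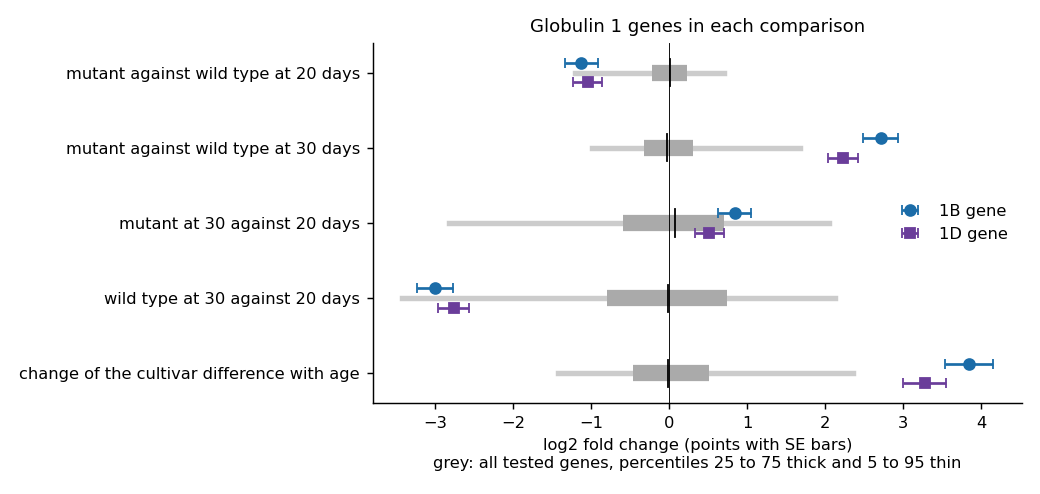
log2 fold changes of the 1B gene (circles) and 1D gene (squares) with SE bars in the 5 comparisons, on the distribution of all 5723 tested genes (grey; thick from percentile 25 to 75, thin from 5 to 95, black tick at the median). The Globulin 1 genes lie beyond the 95th percentile for the mutant at 30 days and for the change with age, and inside the 5 to 95 range in the other comparisons.

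In the wild type the Globulin 1 genes fell with age. The 1B gene averaged 164 FPKM at 30 days, against 1113 FPKM at 20 days, a log2 fold change of -3.00 ± 0.23 (SE; adjusted p = 1.19e-07, edgeR's quasi-likelihood test). The 1D gene averaged 258 FPKM at 30 days, against 1482 FPKM at 20 days, a log2 fold change of -2.76 ± 0.20 (adjusted p = 7.50e-08, edgeR). Calls downward were common in this comparison, at 31.9% of tested genes, and 28% of tested genes had all 30-day libraries below all 20-day libraries. By size the changes ranked 501 and 591 of 5723.

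In the mutant no such fall was seen. The 1B gene averaged 773 FPKM at 30 days, against 621 FPKM at 20 days, and the 1D gene 869 FPKM at 30 days, against 878 FPKM at 20 days, with libraries of the ages overlapping for both. With TMM factors both were called higher at 30 days, with log2 fold changes of 0.84 ± 0.21 for the 1B gene and 0.51 ± 0.19 for the 1D gene (adjusted p = 0.00426 and 0.0310, edgeR), where 29.9% of tested genes were called higher. With library totals alone the same test gave 0.32 for the 1B gene (adjusted p = 0.145) and -0.015 for the 1D gene (adjusted p = 0.946), while the median of all genes stood at -0.46. Quantile normalisation gave -0.17 and -0.64, the 1D value being called lower (adjusted p = 0.000390, limma). The sign of the change in the mutant thus depended on the scaling, and leaving out 1 library ended the 1D call in 7 of 12 cases. The mutant and wild-type time courses share samples with the cultivar comparisons, so the 4 differences are not independent of each other.

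Together the genes made up 0.102% ± 0.0221 of all reads in the mutant and 0.176% ± 0.00592 in the wild type at 20 days (SD, n = 3 each). At 30 days they made up 0.111% ± 0.0223 in the mutant and 0.0287% ± 0.00131 in the wild type. The summed level was 1500 ± 326 FPKM in the mutant and 2595 ± 87.9 FPKM in the wild type at 20 days, a ratio of 0.578. At 30 days it was 1642 ± 329 FPKM in the mutant and 422 ± 18.8 FPKM in the wild type, a ratio of 3.89. Neither cultivar comparison overlapped, and each gave p = 0.1 in a 2-sided exact permutation test, the smallest p that 3 against 3 libraries allow (0.133 with Benjamini-Hochberg adjustment over 16 such tests). In the mutant, 30 over 20 days was a ratio of 1.10 with overlapping libraries (exact permutation p = 0.5). In the wild type it was 0.163 with no overlap (exact permutation p = 0.1).

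The 1D gene was the higher in all 12 libraries. The ratio of 1B to 1D FPKM was 0.836, 0.914 and 0.905 in the mutant at 30 days, against 0.646, 0.635 and 0.625 in the wild type at 30 days. At 20 days the ratio was 0.691, 0.668 and 0.748 in the mutant, against 0.721, 0.772 and 0.763 in the wild type. The groups overlapped at 20 days (2-sided exact permutation p = 0.2). They were apart at 30 days, between the ages in the mutant and between the ages in the wild type, each with the smallest p that the test allows, 0.1. This ratio was examined after the values were seen, it was 1 of 6 ratios compared in 24 tests, and with Benjamini-Hochberg adjustment over them each p of 0.1 became 0.218.

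With 3 libraries a group no p of this test can fall under 0.05, so the test cannot decide whether the ratio differs. In the mutant the ratio of 1B to 1D averaged 0.885 ± 0.0424 at 30 days, against 0.702 ± 0.0414 at 20 days. In the wild type it averaged 0.635 ± 0.0104 at 30 days, against 0.752 ± 0.0274 at 20 days (SD, n = 3 each). In reads, the 1B gene took 46.8% ± 1.21 of the pair in the mutant at 30 days and 38.7% ± 0.388 in the wild type. A ratio within a library does not depend on library scaling. It does depend on how reads that match both copies were assigned, which neither the labels nor the file header give, so the level of a single copy is less certain than the sum.

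**Figure D3:**
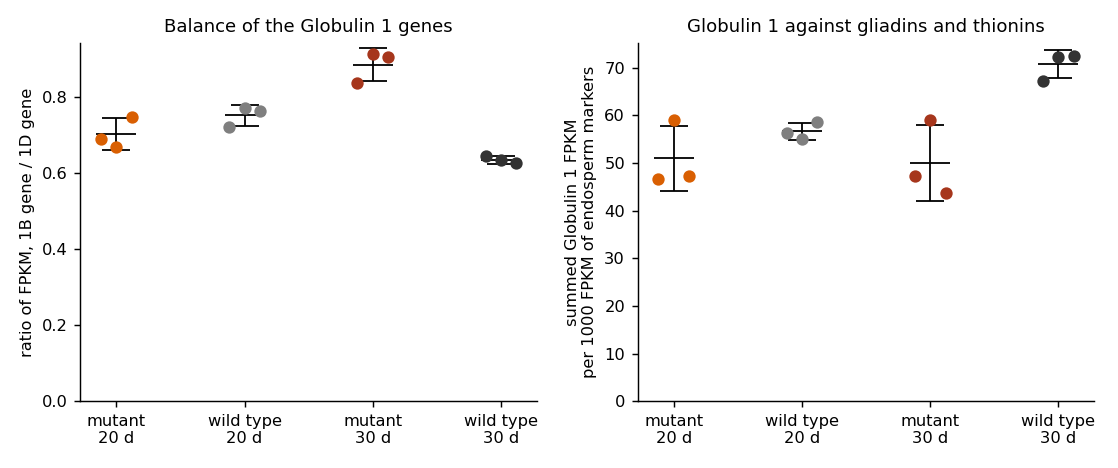
Left, ratio of 1B to 1D Globulin 1 FPKM in each library; right, summed Globulin 1 FPKM per 1000 FPKM of the starchy endosperm markers (gliadins and thionins). Points are libraries, lines and bars the mean and SD (n = 3). The left ratio is highest in the mutant at 30 days, and the right one highest in the wild type at 30 days.

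Gliadins and thionins are made in the starchy endosperm, and their summed level gave a reference within each library. This sum cannot tell the amount of that tissue from the expression of these genes within it. Set against the 13 starchy endosperm markers of the table, the summed Globulin 1 level was 51.0 ± 6.91 per 1000 FPKM of markers in the mutant and 56.6 ± 1.76 in the wild type at 20 days (SD, n = 3 each), with overlapping libraries. At 30 days it was 50.0 ± 8.05 in the mutant and 70.7 ± 2.96 in the wild type, with no overlap (2-sided exact permutation p = 0.1, adjusted 0.218 over the same 24 tests). All 3 mutant libraries thus lay below all 3 wild-type libraries in this ratio, although Globulin 1 itself was higher in the mutant. Of the markers 12 of 12 tested genes were called higher there, beside 13.6% of all tested genes, with a median log2 fold change of 3.06. In the wild type the ratio was 1.25 times as high at 30 as at 20 days and its libraries of the ages did not overlap (exact permutation p = 0.1). In the mutant it was 0.981 times as high at 30 as at 20 days.

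Among prolamins, the alcohol-soluble storage proteins, 10 of 11 tabled genes were tested. At 20 days 3 of the 10 were called lower in the mutant, beside 1.87% of all tested genes. Their median log2 fold change was -0.92, beside 0.01 over all tested genes. With only the 20-day libraries in the fit, 2 of all 5723 tested genes were called lower. Counts above 2 called lower at 20 days, here and in the lists below, thus rest on the fit over all libraries. At 30 days 10 of 10 prolamins were called higher, where 13.6% of all genes were, with a median of 3.29 beside -0.03 over all genes. In the wild type 10 of 10 fell with age, beside 31.9% of all genes, with a median of -3.37. In the mutant 5 rose, beside 29.9% of all genes, with a median of 0.70 that became -0.09 with quantile normalisation. The 18 tested genes of 43 with the nutrient reservoir term include these. Of them 18 of 18 were called higher in the mutant at 30 days (median 3.30), beside 13.6% of all genes. All 18 were called lower with age in the wild type (median -3.50), beside 31.9% of all genes.

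Gamma-gliadin 2, TraesCS1D02G001200, was the prolamin with the largest mean level. It averaged 8526 ± 2412 FPKM in the mutant and 14486 ± 839 FPKM in the wild type at 20 days, and 11316 ± 1435 FPKM in the mutant and 1563 ± 24.7 FPKM in the wild type at 30 days (SD, n = 3 each). Its log2 fold change in the mutant was -1.05 ± 0.25 at 20 days and 3.33 ± 0.27 at 30 days (adjusted p = 0.0481 and 1.62e-06, edgeR's quasi-likelihood test). The order of its 4 groups was that of the 1B Globulin 1 gene.

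Purothionins are thionins of the endosperm, small basic proteins that are toxic to microbes. Both tabled thionins, alpha purothionin and a type V thionin, were called lower in the mutant at 20 days (median -0.93), beside 1.87% of all tested genes. Both were called higher at 30 days (median 2.55), beside 13.6%. Alpha purothionin, TraesCS1B02G426100, averaged 5447 ± 1071 FPKM in the mutant and 7789 ± 337 FPKM in the wild type at 20 days, and 4778 ± 397 FPKM in the mutant and 1250 ± 14.4 FPKM in the wild type at 30 days (SD, n = 3 each).

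The late embryo genes, which encode Em and other LEA-type proteins, took another course. Of 7 tested, 5 rose with age in the mutant (median 4.63) and 6 in the wild type (median 5.35), beside 29.9% and 31.8% of all tested genes. Between the cultivars their medians were 0.09 at 20 days and -0.17 at 30 days. The most abundant, the Em protein gene TraesCS1B02G237500, had 7.60 ± 6.24 FPKM in the mutant and 11.3 ± 4.84 FPKM in the wild type at 20 days, and 757 ± 279 FPKM in the mutant and 1177 ± 25.7 FPKM in the wild type at 30 days (SD, n = 3 each). It rose with age in both cultivars, with log2 fold changes of 7.20 ± 0.63 in the mutant and 6.46 ± 0.61 in the wild type (adjusted p = 7.10e-07 and 8.48e-07, edgeR's quasi-likelihood test).

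Of 3 protein disulfide isomerase genes, whose products help storage proteins to fold, 3 rose with age in the wild type, with a median log2 fold change of 0.28, where 31.8% of all tested genes rose. In the mutant 1 fell with age (27.9% of all genes), 1 was lower in the mutant at 30 days (9.3% of all genes), and 2 were called negative for the change of the cultivar difference with age (10.9% of all genes). The most abundant, TraesCS1D02G106500, averaged 53.8 ± 4.30 FPKM in the mutant and 37.7 ± 3.86 FPKM in the wild type at 20 days, and 35.3 ± 2.78 FPKM in the mutant and 57.5 ± 3.48 FPKM in the wild type at 30 days (SD, n = 3 each). Its mean FPKM was highest in the wild type at 30 days, where that of Globulin 1 was lowest. Its edgeR log2 fold changes between the cultivars were small, 0.20 at 20 days and -0.23 at 30 days (adjusted p = 0.211 and 0.0828).

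**Figure D4:**
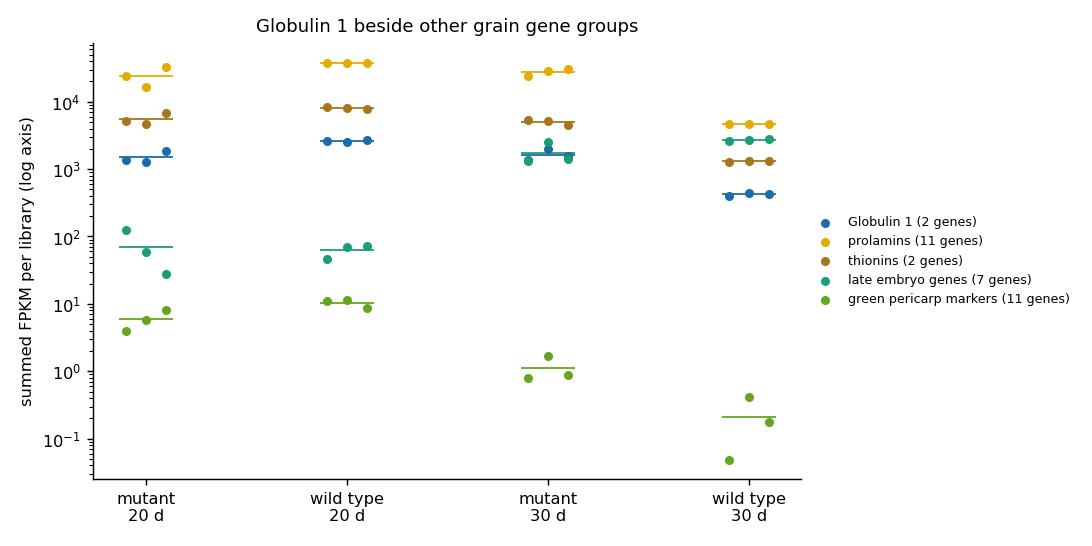
Summed FPKM per library (points, log axis) and group mean (lines) of the 2 Globulin 1 genes beside prolamins, thionins, late embryo genes and green pericarp markers. Globulin 1, prolamins and thionins are all lowest in the wild type at 30 days, while the late embryo genes are highest there.

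Marker lists of the grain's tissues differed in how they followed the groups. The endosperm markers are the prolamins and thionins above, so their counts are not separate from those. Of these markers 5 of 12 tested were called lower in the mutant at 20 days, beside 1.87% of all tested genes. At 30 days 12 of 12 were called higher, beside 13.6%. Of the embryo and aleurone markers 0 of 6 were called between the cultivars at 20 days, beside 2.29% of all genes in either direction. At 30 days 1 of 6 was called, lower in the mutant, beside 22.9% of all genes in either direction. With age 6 of 6 rose in both cultivars, beside 29.9% of all genes in the mutant and 31.8% in the wild type. The Em genes among them are also in the late embryo list. The 6 embryo and aleurone markers (Em proteins and the lectin agglutinin) summed to 26.4 to 136 FPKM in the mutant and 51.2 to 75.6 FPKM in the wild type at 20 days, and 1370 to 2539 FPKM in the mutant and 2782 to 2956 FPKM in the wild type at 30 days. The 13 starchy endosperm markers summed to 21489 to 39611 FPKM in the mutant and 45407 to 46353 FPKM in the wild type at 20 days, and 29073 to 35312 FPKM in the mutant and 5920 to 6037 FPKM in the wild type at 30 days. The 11 green pericarp markers, genes of chlorophyll a-b binding proteins, were low throughout. They summed to 4.02 to 8.11 FPKM in the mutant and 8.62 to 11.4 FPKM in the wild type at 20 days, and 0.802 to 1.69 FPKM in the mutant and 0.0490 to 0.409 FPKM in the wild type at 30 days, and 2 of them, TraesCS1B02G388500 and TraesCS1B02G433300, were at 0 in all libraries. Of the 3 green pericarp markers tested, 1 was called lower in the mutant at 20 days, beside 1.87% of all genes. At 30 days 2 were called higher, beside 13.6%. With age 3 fell in the wild type and 2 in the mutant, beside 31.9% and 27.9% of all genes. By their sums, endosperm markers were present in all 12 libraries. The part of tissue makeup, or of a difference in grain stage between the cultivars, in the Globulin 1 differences was not tested.

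Likeness to the 1B gene was measured as Pearson's r of log2(FPKM + 1) over the 12 libraries, among 5722 other tested genes. It is given as a description, since the libraries fall into 4 groups that drive it, and r exceeded 0.95 for 55 genes. The 5 most alike were TraesCS1A02G317500 (0.997), TraesCS1D02G317301 (0.994), TraesCS1D02G028100 (0.994), TraesCS1A02G066100 (0.991) and the 1D Globulin 1 gene (0.991). Of these, TraesCS1D02G028100 carries the serine-type endopeptidase inhibitor term and TraesCS1A02G066100 the nutrient reservoir term. The described genes that followed the 1D Globulin 1 gene were gamma-gliadin 2 (0.990), the gliadin/avenin-like gene TraesCS1D02G000700 (0.985), delta gliadin-D1 (TraesCS1D02G001300, 0.980) and gamma-gliadin 3 (TraesCS1B02G010400, 0.977).

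The gene most alike, TraesCS1A02G317500, has no description and is typed in the table as a coding sequence that is not translated. It lay on the minus strand of 1A at bases 508929434 to 508930124 and spanned 691 bases, close to the length of the Globulin 1 models. It had 660, 597 and 867 FPKM in the mutant and 1213, 1112 and 1194 FPKM in the wild type at 20 days. At 30 days it had 679, 928 and 747 FPKM in the mutant and 168, 197 and 202 FPKM in the wild type. Mutant and wild-type libraries were apart at both ages, in the same directions as for Globulin 1. Its log2 fold change was -1.02 ± 0.19 at 20 days and 2.53 ± 0.20 at 30 days (adjusted p = 0.0252 and 1.34e-06, edgeR's quasi-likelihood test). Against the 1D gene its FPKM ratio was 0.904 ± 0.0197 in the mutant and 0.731 ± 0.0390 in the wild type at 30 days (SD, n = 3 each; no overlap, exact permutation p = 0.1), and the ratio was thus higher in the mutant, as it was for 1B. The ratio of the 1B gene to it overlapped between the groups of every comparison. The files do not state how it relates to the Globulin 1 genes.

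On the side of lower coordinate each Globulin 1 gene stood next to another transcript of high level. The nearest tabled gene on that side of the 1B gene, TraesCS1B02G329992, starts 5283 bases lower on the same strand, is likewise typed as not translated and has no description. It averaged 1256 ± 140 FPKM in the mutant and 1813 ± 61.9 FPKM in the wild type at 20 days, and 1716 ± 198 FPKM in the mutant and 492 ± 12.7 FPKM in the wild type at 30 days (SD, n = 3 each). The nearest tabled gene on the lower side of the 1D gene, TraesCS1D02G317301, starts 5656 bases lower on the same strand and has the same type. It averaged 2326 ± 380 FPKM in the mutant and 3650 ± 213 FPKM in the wild type at 20 days, and 2600 ± 159 FPKM in the mutant and 855 ± 27.9 FPKM in the wild type at 30 days (SD, n = 3 each). Per length both stood above the Globulin 1 gene beside them in all 4 group means.

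Both neighbours were called lower in the mutant at 20 days and higher at 30 days, as were 82 of 5723 tested genes (1.43%). TraesCS1B02G329992 had log2 fold changes of -0.83 ± 0.17 and 2.28 ± 0.18 at these ages (adjusted p = 0.0327 and 1.18e-06, edgeR's quasi-likelihood test). TraesCS1D02G317301 had -0.94 ± 0.19 and 2.08 ± 0.20 (adjusted p = 0.0305 and 4.85e-06, edgeR). A further untranslated model on the 1D side, TraesCS1D02G317211, lay 62646 bases lower and had -1.12 ± 0.23 and 2.88 ± 0.25 (adjusted p = 0.0362 and 2.47e-06, edgeR). On 1A, TraesCS1A02G317311 was chosen after the values were seen. Like TraesCS1A02G317500, it lies between a histone deacetylase model and a peroxidase model. Whether this 1A interval matches the stretches of 1B and 1D was not tested. TraesCS1A02G317311 averaged 679 ± 133 FPKM in the mutant and 1180 ± 82.1 FPKM in the wild type at 20 days, and 1335 ± 175 FPKM in the mutant and 262 ± 3.37 FPKM in the wild type at 30 days (SD, n = 3 each).

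On the other side of the Globulin 1 genes the neighbours were nearly silent. The 3 tabled genes above the 1B gene in coordinate had group means of at most 1.92 FPKM, and those above the 1D gene at most 0.516 FPKM. Among those beside the 1D gene, TraesCS1D02G317400 starts 2500 bases from the 1D gene, nearer than any gene on the lower side. The lower side held nearly silent genes too. Beside the 1B gene, TraesCS1B02G329793 and TraesCS1B02G329900 had at most 0.0911 FPKM in any library. Beside the 1D gene, TraesCS1D02G317200 had 95.02 FPKM in 1 library and at most 0.342 FPKM in every other.

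**Figure D5:**
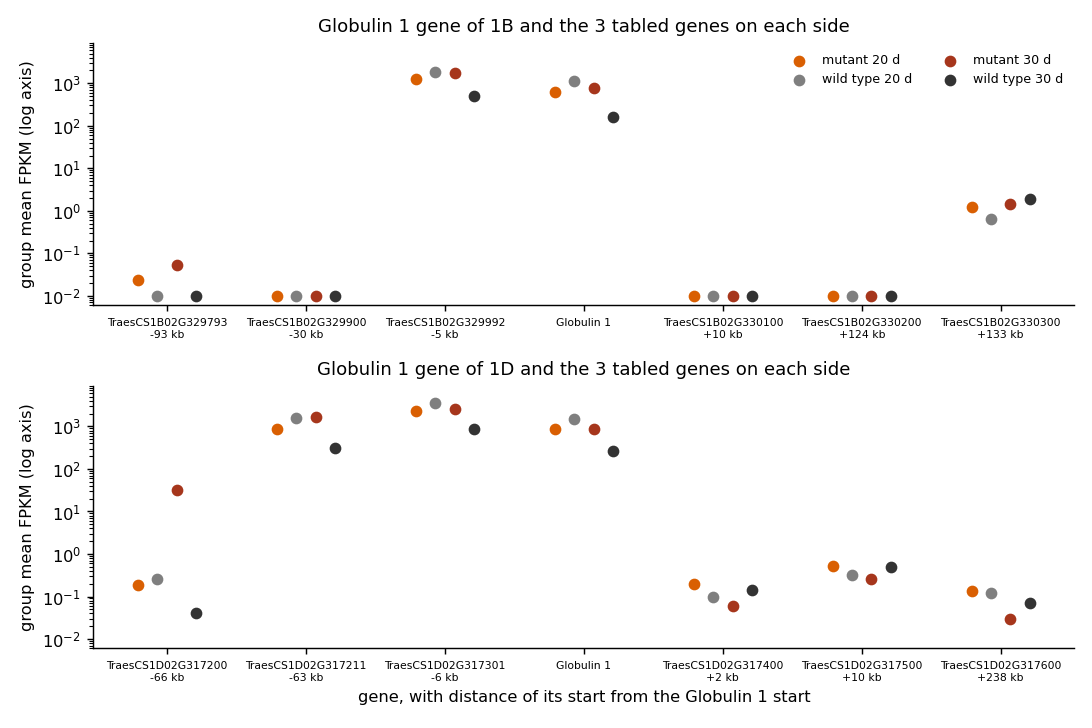
Group mean FPKM (log axis; means under 0.01 are drawn at 0.01) of each Globulin 1 gene and its 3 nearest tabled genes on either side, with the distance of each start from the Globulin 1 start. The genes of high level lie on the side of lower coordinate, and their wild-type 30-day mean is the lowest of the 4 groups. The mutant 30-day mean of TraesCS1D02G317200, 31.7 FPKM, rests on replicate 1 (95.02 FPKM), as no other library exceeded 0.342 FPKM.

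Since the table annotates Globulin 1 as serine endopeptidase inhibitors, the 99 other tabled genes with that term were set beside it, a list chosen after the values were seen. Of the 24 tested, 6 were called lower in the mutant at 20 days (median log2 fold change -0.53), beside 1.87% of all genes. At 30 days 12 were called higher and 1 lower (median 0.76), beside 13.6% higher and 9.3% lower of all genes. With equal FPKM totals these medians became 0.21 and -0.34, while the medians of all tested genes became 0.69 and -1.14. With age 10 rose and 8 fell in the wild type, where near-equal shares of all genes did so, 31.8% and 31.9%. In the mutant 18 rose and 1 fell with age, beside 29.9% and 27.9% of all genes. TraesCS1D02G028100, the inhibitor most like the 1B gene, averaged 114 ± 30.0 FPKM in the mutant and 226 ± 13.6 FPKM in the wild type at 20 days, and 143 ± 15.7 FPKM in the mutant and 25.9 ± 3.08 FPKM in the wild type at 30 days (SD, n = 3 each).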

How the data were processed

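A single table of all libraries was used. Per the file headers it holds, for every gene, whole-number counts of reads as deposited by the authors, beside FPKM. The deposited FPKM are counts scaled by gene length and library total, with 0.0001 written where the count is 0. Per the labels' protocols the RNA came from a Trizol extraction and a TruSeq kit was used for the libraries. The submitters' processing notes name cutadapt 1.9 and FastQC. For the aligner, the genome build, the counting tool and its use of strand, what was done is not given in the sources used here. An incomplete last line (1) was left out. Gene models lie on 1A, 1B and 1D alone, and gene descriptions come from the deposited table, as 0 of its identifiers occur in the reference table.

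Library totals were worked out from counts over FPKM at 43 non-coding genes (minimum 100 counts in any library). Genes that reached an FPKM of 1 in 3 or more of the 12 libraries (5723) were tested with edgeR 4.0.16 (R 4.3.3), by its quasi-likelihood test on counts, with TMM factors on those totals, group means only and 1 fit over all libraries. A gene was called where the Benjamini-Hochberg adjusted p over all genes was under 0.05. SE is the absolute log2 fold change divided by the square root of the F statistic. For single values, exact permutation tests (2-sided) were used.

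Genes named are those the rule finds, the 5 most alike to the 1B gene overall and among described genes, the most abundant gene of each list and 3 neighbours on each side. The members, the lists taken by words in the descriptions (oil body genes had 0 tabled members) and these rules were chosen with earlier results of these data known. The serine endopeptidase inhibitor list, the 1A interval and the ratios within libraries were added after the values were seen. Alternatives were limma 3.58.1 on log2(FPKM + 1) or log2(FPKM + 0.1), DESeq2 1.42.0, other filters, scalings and samples in the fit, a replicate block, and leaving out single libraries. Scripts were tested on simulated data.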

Additional observations from a re-analysis of the deposited data

Results flagged for a closer look

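The effect of the cultivar on the Globulin 1 genes differed between the ages, by a test of the difference itself. For TraesCS1B02G330000 the mutant against wild-type log2 fold change was higher at 30 than at 20 days by 3.84 (SE 0.31; adjusted p = 2.00e-06, edgeR's interaction contrast), since every mutant library lay below the wild type at 20 days and above it at 30 days. For TraesCS1D02G317300 it was higher by 3.27 (SE 0.27; adjusted p = 2.30e-06, edgeR's interaction contrast), with the same separation of libraries. Whether the grains of the cultivars stood at the same stage at a given day was not tested.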

How the results depend on the processing

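For both Globulin 1 genes the rise in the mutant at 30 days, the fall with age in the wild type and the change of the cultivar difference with age kept their direction and call under every alternative run. With equal FPKM totals, the smallest values were 1.60 and 1.11 at 30 days and 2.10 and 1.53 for the change with age (1B and 1D genes, log2). The 20-day fall kept its direction but lost its call with only the compared groups in the fit (-1.12 and -1.04 for the 1B and 1D genes; adjusted p = 0.0754 for each, edgeR), with quantile normalisation for the 1D gene (-0.34), and with a replicate block for both. The rise with age in the mutant lost its call for the 1B gene with limma at either pseudocount (0.32), library totals alone (0.32) and equal FPKM totals (0.16), and turned round with quantile normalisation (-0.17). For the 1D gene it lost its call with median-of-ratios factors (0.45), table sums with TMM (0.46) and only the compared groups (0.46), and turned round with limma at either pseudocount (-0.013), library totals alone (-0.015), equal FPKM totals (-0.18) and quantile normalisation (-0.64). Other scalings moved the median of all genes, with library totals alone by 0.32 at 20 days, -0.51 at 30 days, -0.46 in the mutant with age and 0.23 in the wild type with age. Relative to that median the mutant's change with age was 0.78 for the 1B gene and 0.45 for the 1D gene, and 0.76 and 0.44 with TMM factors. With quantile normalisation, where the median was 0.04, it stayed negative relative to the median, at -0.21 for the 1B gene and -0.68 for the 1D gene. The summed level ratio was 4.71 at 30 days and 0.147 in the wild type with age when the 1B gene alone was counted.

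The labels do not state whether libraries of the same replicate number are paired, and the correlations computed do not settle it. Deviations of same-numbered libraries correlated above 0.1 in 3 of 18 pairs (-0.133 to 0.346). Between the ages of the wild type they were 0.346, -0.133 and 0.221 for replicates 1, 2 and 3. With the replicate number as a block, the 20-day values were -1.15 for the 1B gene and -1.06 for the 1D gene (adjusted p = 0.0543 and 0.0503, edgeR), so neither gene was called, and 21 genes were called at 20 days, against 131 without it.

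With each library left out in turn, the log2 fold changes of the 1B gene ran from -1.43 to -0.95 at 20 days, 2.49 to 2.85 at 30 days, 0.58 to 1.14 in the mutant with age, -3.06 to -2.98 in the wild type with age and 3.61 to 4.14 for the change with age. Those of the 1D gene ran from -1.29 to -0.90, 2.03 to 2.33, 0.28 to 0.75, -2.84 to -2.72 and 3.07 to 3.51 in the same order. The call ended in 5 of 12 omissions for the 1B gene and 4 of 12 for the 1D gene at 20 days, and in 7 of 12 for the 1D gene in the mutant with age. Summed level ratios ran from 0.506 to 0.623 at 20 days, 3.45 to 4.21 at 30 days, 0.973 to 1.25 in the mutant with age and 0.160 to 0.167 in the wild type with age.

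The number of genes called at 20 days, 131, was 2 with only the compared groups, 272 with quantile normalisation, 535 with DESeq2, 1415 and 1685 with limma, 1515 with library totals alone and 3435 with equal FPKM totals, and 11 to 414 with a library left out. At 30 days 1312 became 3007 with library totals alone, 4559 with equal FPKM totals and 3026 and 3028 with limma, and for the change with age 1374 became 3355, 4664, 3375 and 3488. The cause of these shifts was not tested.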
